A study of Mus musculus with 2 samples.

Results

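The 7 genes described here encode 6 enzymes of cholesterol synthesis (Hmgcs1, Fdft1, Sqle, Lss, Cyp51 and Dhcr7) and 1 cholesterol carrier (Stard4). They were taken by name from the study's table of 44002 rows, in which all 7 were found by their Entrez gene ID. They were named as targets of the sterol response. The rule itself uses no measured value, but the genes were chosen with earlier results of these data known. The study profiled poly(A) RNA of whole testis from BALB/c mice at postnatal day 45. A control library, whose labels carry no treatment, was set beside a library from mice exposed to bisphenol A (BPA), a plastics monomer. The sources used here give neither dose nor route nor duration of the exposure. Each group had 1 library, made from 3 pooled samples, so no spread within a group was measured and no test between the conditions could be made. All differences below are between these 2 libraries, and "with BPA" stands for a level in the library of the exposed mice. Reads of the genes listed above 0, which leaves out values under 1 CPM, came to 45162887 with BPA and 41711330 in the control.

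Cholesterol is built from acetyl-CoA by way of mevalonate, squalene and lanosterol, the earliest molecule with the sterol ring, which is then trimmed and reduced to cholesterol. The genes of this pathway are switched on together by SREBP transcription factors, which sit in the endoplasmic reticulum bound to SCAP while sterols are plentiful and are cut free by proteases of the Golgi when sterols run low. In the testis, cholesterol is the starting material of testosterone in Leydig cells, and germ cells also make sterols of their own, including intermediates that follow the step of Cyp51.

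SREBP acts on promoters together with the factor NF-Y, which reads the CCAAT box. The 150 bases before the start of 4 of the 7 genes are shown because the elements of the sterol response lie close to the start in genes of this pathway. The sequences are from RefSeq (GRCm38.p6, a C57BL/6J genome), each on the strand of its gene, before the start that lies farthest upstream in the RefSeq promoter table. For Lss that transcript start lies inside the RefSeq span of the gene, so the last bases shown are within the span. Capitals mark the sterol regulatory element TCACNCCAC and the CCAAT box, searched on both strands, so that ATTGG is a CCAAT box read from the other strand. Hmgcs1 is at chr13:119690201-119690350 (plus strand), Lss at chr10:76531455-76531604 (plus strand), Cyp51 at chr5:4104698-4104847 (minus strand) and Dhcr7 at chr7:143823017-143823166 (plus strand).
Hmgcs1: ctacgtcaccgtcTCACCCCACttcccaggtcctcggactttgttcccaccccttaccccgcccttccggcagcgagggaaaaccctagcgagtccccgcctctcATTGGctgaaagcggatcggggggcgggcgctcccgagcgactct
Lss: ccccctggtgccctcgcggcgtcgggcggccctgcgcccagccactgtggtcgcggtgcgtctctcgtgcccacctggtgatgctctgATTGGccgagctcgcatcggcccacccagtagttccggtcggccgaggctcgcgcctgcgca
Cyp51: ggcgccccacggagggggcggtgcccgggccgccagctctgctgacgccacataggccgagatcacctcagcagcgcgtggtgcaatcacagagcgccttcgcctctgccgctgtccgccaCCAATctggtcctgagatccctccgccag
Dhcr7: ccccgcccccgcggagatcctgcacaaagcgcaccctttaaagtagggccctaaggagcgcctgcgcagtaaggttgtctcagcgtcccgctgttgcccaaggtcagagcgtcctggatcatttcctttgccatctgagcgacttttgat

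Hmgcs1 held the sterol element 137 to 129 bases before its start, and a CCAAT box 45 to 41 bases before it. Lss held a CCAAT box 62 to 58 bases before the start in that table, and Cyp51 held one 29 to 25 bases before it. Dhcr7 has 3 starts in the RefSeq table: the stretch shown has neither element, and the start farthest downstream has CCAAT boxes 85 to 81 and 49 to 45 bases before it. In windows of 250 bases before the start, the CCAAT box was found at 16 of the 17 synthesis enzyme genes with an entry (16 of their 20 windows), against 33.8% of all 32851 windows. The GC box GGGCGG was found at 15 of the 17 (16 of their 20 windows), against 32.7% of all windows. The sterol element was found at 1 of the 17 (1 of their 20 windows), against 1.05% of all windows. The search allowed no mismatch, and a match is a description of these letters only.

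In the testis the 7 genes ran from 9.74 CPM (Stard4, control) to 431 CPM (Fdft1, control), where CPM is a gene's read count scaled to the size of its library. Fdft1 alone made up 52.6% of the summed CPM of the 7 genes with BPA and 55.7% in the control. Their sum was 776 CPM with BPA and 775 CPM in the control, and without Fdft1 it was 368 and 343 CPM. Ranked among the 19389 genes that reached 1 CPM in either library, Fdft1 stood at place 386 with BPA and 361 in the control, and Stard4 at 8275 and 10032.

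**Figure D1:**
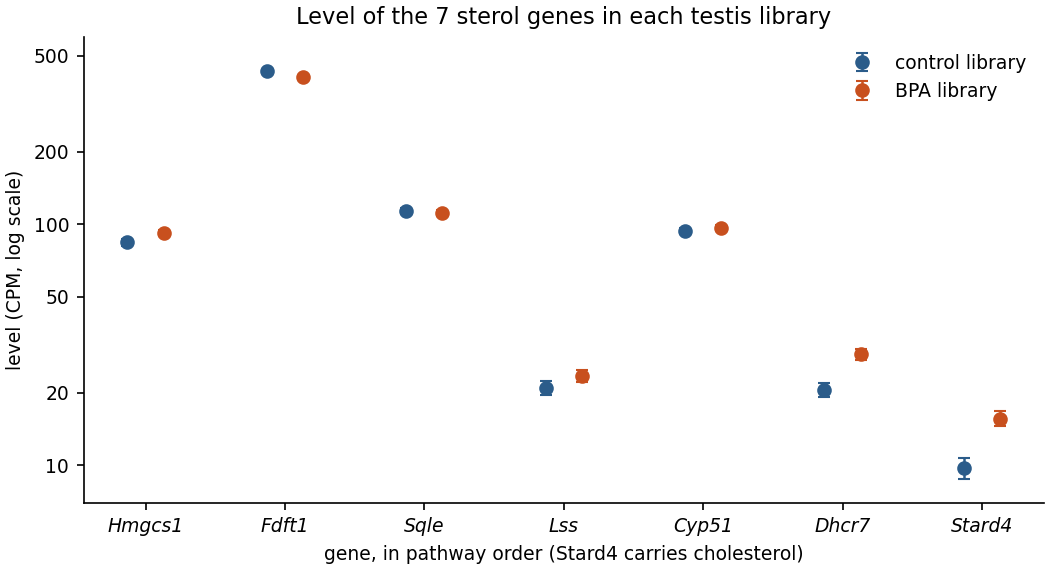
Level of each of the 7 genes in the control and the BPA library, in CPM on a log axis, with exact 95% Poisson intervals of the reads as bars (1 library each). Points of Fdft1, Sqle and Cyp51 lie nearly level, and those of Dhcr7 and Stard4 lie higher in the BPA library.

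Levels of different genes can be compared only per length, here as CPM per kilobase of merged GENCODE exons. On that scale Fdft1 had 96.5 CPM per kilobase with BPA and 102 in the control. Cyp51 (21.9 and 21.3), Sqle (20.2 and 20.5) and Hmgcs1 (20.02 and 18.4) formed a middle group. Dhcr7 (4.96 and 3.54), Stard4 (2.80 and 1.74) and Lss (2.18 and 1.95) were lowest on the per-kilobase scale. With the longest transcript as the length, the places of Fdft1 and Dhcr7 were the same, but Cyp51 and Hmgcs1 changed places around Sqle, and Lss came before Stard4. On the merged exons too, Lss came before Stard4 in the control.

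The comparison of the libraries asked whether the levels of these genes differed with BPA exposure. For each gene the ratio is BPA CPM over control CPM, with a 95% interval from the reads (Clopper-Pearson, exact). It covers counting error only, since PCR copies are not independent molecules and the spread between animals was not measured. In a bulk sample, fewer cells of a type and less RNA per cell cannot be told apart. A gene is counted past the 25% limit where its higher library lies at least 25% above the lower one. Of the 7 genes, 2 were past the 25% limit on the BPA side (Dhcr7 and Stard4), 1 of these was 1.5-fold or more higher (Stard4), none reached 2-fold, and none was past the 25% limit on the lower side. Over all 19389 genes, 11.3% were past the 25% limit on the higher side and 12.0% on the lower, 4.27% were 1.5-fold or more higher and 5.37% lower, and 1.32% were 2-fold or more higher and 1.95% lower. Among the 9979 genes that average at least 10 CPM, as all 7 do, the shares were 3.48% higher and 2.86% lower at the 25% limit, and 0.802% higher and 0.872% lower at 1.5-fold. These shares use log2 ratios to which 0.1 CPM was added on both sides.

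By counting error alone, the interval of the ratio lay above 1 for 4 of the 7 genes (Hmgcs1, Lss, Dhcr7 and Stard4) and below 1 for Fdft1, and it held 1 for Sqle and Cyp51. The interval lay above 1 for 21.8% of all genes and below 1 for 21.3%, and for 25.3% and 23.6% of those averaging at least 10 CPM. An interval off 1 is therefore common between these 2 libraries.

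Hmgcs1 (gene ID 208715) encodes the cytosolic HMG-CoA synthase, an early enzyme on the way to mevalonate. It stood at 92.0 CPM (4173 reads) with BPA and 84.4 CPM (3528 reads) in the control. The ratio was 1.09 (1.04 to 1.14), and 11.1% of 1947 genes with a mean level within 1.5-fold of its own lay at least as far in that direction. The gene spans chromosome 13 from 119690351 to 119708260 on GRCm38. Of its exon bases 12.1% overlap those of Gm48342 on the other strand, with the limit on shared reads given for Fdft1 below. For Cyp51 and Lss, 3.76% and 3.53% of exon bases overlap another gene on the other strand.

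Fdft1 (14137) encodes squalene synthase, which joins a pair of farnesyl diphosphates and commits them to sterols. Its level was 408 CPM (18513 reads) with BPA and 431 CPM (18036 reads) in the control, a ratio of 0.946 (0.926 to 0.965). It was the only member whose interval lay below 1, and 17.8% of 539 genes of a like level lay at least as far on that side. Fdft1 spans chromosome 14 from 63145150 to 63181687. Of its exon bases 18.3% overlap those of Ctsb on the other strand, and the library protocol describes no step that marks the strand, so reads of the shared bases cannot be assigned. Ctsb itself went the other way, with 80.5 CPM with BPA and 70.4 CPM in the control. Separately, 9.38% of the 50-base words of Fdft1 transcripts also occur in Gm6781 at another locus.

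Sqle (20775) encodes squalene epoxidase, a rate-limiting step of the sterol branch. It stood at 112 CPM (5075 reads) with BPA and 114 CPM (4754 reads) in the control. The ratio was 0.983 (0.945 to 1.02), so a difference was not detectable at this depth. Sqle spans chromosome 15 from 59315092 to 59331193.

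Lss (16987) encodes lanosterol synthase, which folds squalene epoxide into the sterol ring. Its level was 23.5 CPM (1066 reads) with BPA and 21.0 CPM (878 reads) in the control, with a ratio of 1.12 (1.02 to 1.22). The lower bound of that interval lay close to 1, and 20.9% of 2936 genes of a like level were at least as far toward the BPA library. Lss spans chromosome 10 from 76531565 to 76557139.

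Cyp51 (13121) encodes lanosterol 14-alpha demethylase, the cytochrome P450 that begins the trimming of the ring. It stood at 96.5 CPM (4379 reads) with BPA and 93.8 CPM (3923 reads) in the control. The ratio of 1.03 (0.985 to 1.07) held 1, and 32.4% of 1927 genes of a like level lay at least as far in that direction. Cyp51 spans chromosome 5 from 4080674 to 4104697.

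Dhcr7 (13360) encodes 7-dehydrocholesterol reductase, which makes cholesterol in the last step of one branch of the pathway. Its level was 28.9 CPM (1310 reads) with BPA and 20.6 CPM (861 reads) in the control. The ratio was 1.40 (1.29 to 1.53), the largest ratio among the 6 enzymes. Of 2870 genes of a like level, 1.39% lay at least as far toward the BPA library. Dhcr7 spans chromosome 7 from 143823167 to 143848410.

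Stard4 (170459) encodes a soluble carrier that moves cholesterol between membranes. It stood at 15.6 CPM (710 reads) with BPA and 9.74 CPM (407 reads) in the control, 1.61-fold higher (1.42 to 1.82). Of 3042 genes of a like level, 1.22% lay at least as far toward the BPA library. Stard4 had the largest ratio of the 7, and its log2 ratio of 0.68 lay above the 95th percentile of those genes (0.38). Stard4 spans chromosome 18 from 33199138 to 33213862.

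The authors' deposited table called none of the 7 genes. The share of all genes it called was not counted here, so this sets the 7 apart from no others. In the authors' deposited table the p-value of the 7 ranged from 0.235 for Dhcr7 and 0.236 for Stard4 to 0.915 for Sqle, and the q-value of each was 0.99996. The program behind these p-values was not given in the sources used here. Of the neighbours within 1 Mb at 1 CPM or more, none was 2-fold apart for Hmgcs1 (11 neighbours), Fdft1 (24), Lss (43), Dhcr7 (24) or Stard4 (12). Near Sqle 1 of 16 was, Fam91a1 with 13.6 CPM with BPA and 4.69 CPM in the control, and near Cyp51 1 of 17 was, Mterf1b with 0.397 and 1.22 CPM. Over all genes, 1.32% were 2-fold or more higher and 1.95% lower.

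**Figure D2:**
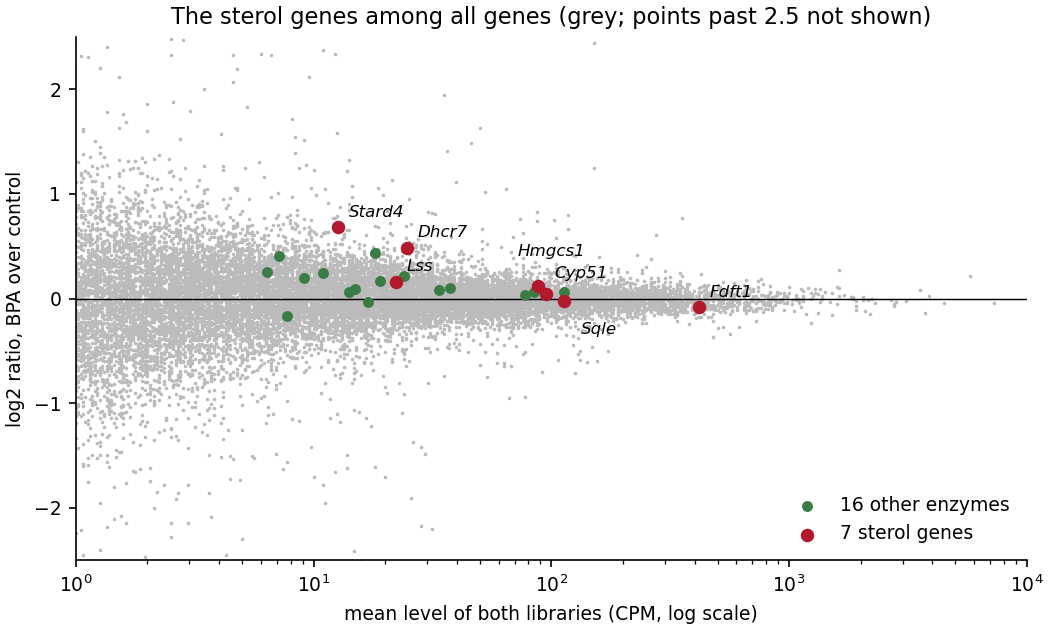
Log2 ratio, BPA over control (0.1 CPM added to each), against the mean CPM of both libraries on a log axis, for genes averaging at least 1 CPM (grey), the 7 sterol genes (red, named) and 16 other enzymes of the pathway (green). Dhcr7 at 0.49 and Stard4 at 0.68 lie near the upper edge of the grey points at their level, and Fdft1, Sqle, Cyp51, Hmgcs1 and Lss lie inside them.

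The 6 enzymes belong to a list of 22 enzymes of the pathway from acetyl-CoA to cholesterol, all of which reached 1 CPM. The list includes Ggps1, of the geranylgeranyl branch. Of the 22, 18 had a log2 ratio above 0 and 4 below 0 (Fdft1, Sqle, Mvk and Mvd). Their median log2 ratio was 0.09, and that of all 19389 genes was 0.004. At the 25% limit, 3 enzymes were higher in the BPA library (Dhcr7, Sc5d and Hsd17b7) and none was lower, against the 11.3% and 12.0% of all genes given above. Among the enzymes averaging at least 10 CPM, 2 were past the limit on the higher side (Dhcr7 and Sc5d). The share of all genes at that level was 3.48%. None of the 22 was 1.5-fold apart. The interval lay above 1 for 10 of the 22 and below 1 for 1, beside 21.8% and 21.3% of all genes. Without the 6 enzymes of the 7 genes, the other 16 had 14 log2 ratios above 0 and a median of 0.09.

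Of the 12 enzymes up to lanosterol (Ggps1 counted among them), 8 were above 0 and 4 below, with a median log2 ratio of 0.07. None was past the 25% limit, beside 11.3% of all genes on the higher side and 12.0% on the lower. Among genes averaging at least 10 CPM the shares were 3.48% and 2.86%. Fdps, which makes farnesyl diphosphate, stood at 86.4 CPM with BPA and 82.6 CPM in the control, Idi1, the isopentenyl diphosphate isomerase, at 34.7 and 32.7 CPM, and the thiolase gene Acat2 at 15.4 and 14.5 CPM. Ggps1, of the geranylgeranyl branch, had 14.4 and 13.8 CPM, and the mevalonate kinase Mvk had 16.8 and 17.2 CPM. The largest ratios in size among them were those of the kinase Pmvk, with 11.9 CPM with BPA and 9.9996 CPM in the control (log2 ratio 0.24), and the decarboxylase Mvd, with 7.25 and 8.16 CPM (log2 ratio -0.17). Reads of Acat2, Idi1 and Fdps are uncertain, since 39.1%, 17.7% and 15.5% of their 50-base words occur at other loci.

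After lanosterol, all 10 enzymes had a log2 ratio above 0, with a median of 0.20. The counting interval lay above 1 for 6 of the 10 and held 1 for the other 4. It lay above 1 for 21.8% of all genes and for 25.3% of those averaging at least 10 CPM. Past the 25% limit on the BPA side were 3 of the 10, against 11.3% of all genes. Besides Dhcr7 these were Sc5d, the lathosterol oxidase whose product Dhcr7 reduces, with 20.9 and 15.4 CPM (ratio 1.36, 1.23 to 1.502), and Hsd17b7, a sterol ketone reductase, with 8.13 and 6.12 CPM (ratio 1.33, 1.13 to 1.56). Msmo1, the methylsterol oxidase, stood at 25.7 CPM with BPA and 22.1 CPM in the control (ratio 1.16, 1.06 to 1.27). Nsdhl, which removes a carboxyl group from the ring, had 20.1 and 17.9 CPM, the isomerase Ebp 9.72 and 8.47 CPM and the ring reductase Tm7sf2 6.96 and 5.84 CPM. Lbr, a ring reductase that is also the lamin B receptor, had 38.8 and 36.2 CPM. Summed over the 10 genes, the level was 334 CPM with BPA and 303 CPM in the control, and over the 12 genes up to lanosterol 938 and 940 CPM. The difference between the early and late steps was not tested.

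The split by step runs beside one by level. The 7 enzymes with a mean of 50 CPM or more had log2 ratios from -0.08 to 0.12, and the 15 below it from -0.17 to 0.49, a limit chosen after the values were seen. Over all genes with a mean from 10 to 100 CPM, log2 ratios had a robust SD of 0.15, against 0.08 from 100 CPM up and 0.28 from 4 to 10 CPM.

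**Figure D3:**
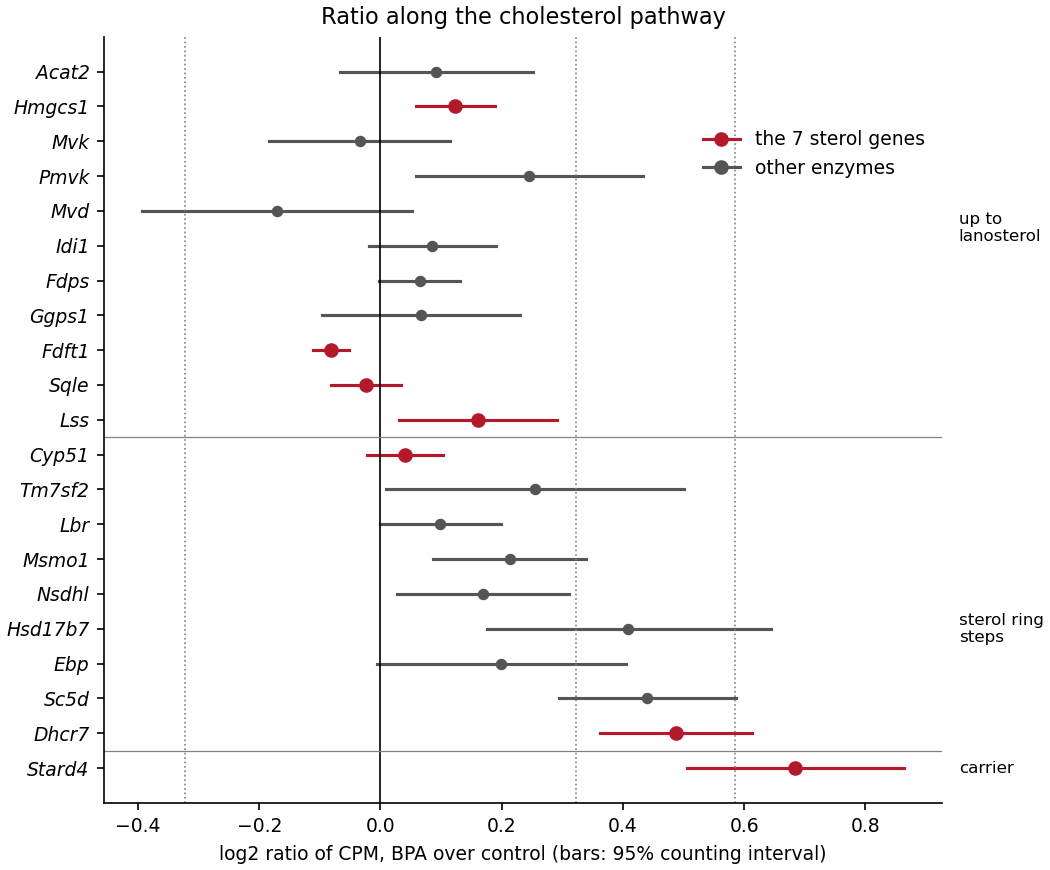
Log2 ratio of CPM, BPA over control without pseudocount, for enzymes of the pathway in its order and for Stard4, with 95% counting intervals as bars and dotted lines at the 25% limit in either direction and at 1.5-fold higher. The 7 sterol genes are red, and the points of the enzymes shown after lanosterol all lie to the right of 0. The bars of Cyp51, Lbr and Ebp reach across 0.

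Of 13 listed genes that control SREBP, 12 reached 1 CPM. None of these was past the 25% limit, beside 11.3% of all genes on the higher side and 12.0% on the lower. Among genes averaging at least 10 CPM these shares were 3.48% and 2.86%. The log2 ratio was above 0 for 6 and below 0 for 6, with a median of -0.004. The counting interval lay above 1 for 2 of the 12 and below 1 for 1, beside 21.8% and 21.3% of all genes. Srebf2, the SREBP of cholesterol synthesis, stood at 69.6 CPM with BPA and 69.4 CPM in the control, and Srebf1, whose products also drive fatty acid synthesis, at 14.2 and 14.4 CPM. The escort Scap had 35.6 CPM in each library, the site-1 protease Mbtps1 38.7 and 38.6 CPM and the site-2 protease Mbtps2 5.002 and 4.66 CPM. Insig1, which holds SCAP back and is itself an SREBP target, had 22.3 and 19.7 CPM (ratio 1.13, 1.03 to 1.246), and Insig2 67.3 and 62.2 CPM (1.08, 1.03 to 1.14). The ubiquitin ligases Rnf139 (343 and 346 CPM) and Mylip (2.16 and 2.49 CPM) and the liver X receptors Nr1h2 (40.04 and 41.8 CPM) and Nr1h3 (13.7 and 13.97 CPM) all had ratios below 1. The interval held 1 for each of these ligases and receptors.

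Beside Stard4, the list of uptake and transport genes held 17 others, of which 16 reached 1 CPM and Vldlr was listed at 0 in both libraries, where levels under 1 CPM are written as 0. Of the 16, 3 were past the 25% limit on the BPA side and 1 on the other, against 11.3% and 12.0% of all genes. The median log2 ratio of the 16 was 0.01. Among the higher genes were Stard5, a sterol carrier related to Stard4, with 10.1 and 7.30 CPM (ratio 1.39, 1.1995 to 1.61), and Star, which brings cholesterol into mitochondria for steroid synthesis, with 95.9 and 70.9 CPM (1.35, 1.29 to 1.42). Npc1, which exports cholesterol from lysosomes, was lower, with 6.04 CPM with BPA and 8.52 CPM in the control (ratio 0.709, 0.603 to 0.832). The gene of the list with the highest CPM, not set per length, was that of the transfer protein Gramd1b, at 234 and 256 CPM. Of the exon bases of Stard5, 23.9% overlap other genes.

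Of all genes, 50.9% had a log2 ratio above 0, and at the 25% limit 11.3% were higher and 12.0% lower. Of 8 Leydig markers (Star among them), 7 had a log2 ratio above 0, up to 0.81 for Hsd3b6, with Hsd3b1 at -0.35. At the 25% limit 2 were higher and 1 lower, and their sum was 922 CPM with BPA and 865 CPM in the control. Of 10 Sertoli markers, 9 lay above 0, up to 0.67 for Fshr, with Rhox8 at -2.58. At the 25% limit 3 were higher and 1 lower, and their sum was 778 and 686 CPM. Their median log2 ratio was 0.19, but with Rhox8 the mean was -0.01. Of 8 spermatogonial markers, 6 lay above 0, from Gfra1 at -0.24 to Stra8 at 0.42 (sum 144 and 132 CPM). Of 10 spermatocyte markers, 5 lay above 0, from Sycp3 at -0.17 to Piwil1 at 0.08 (sum 1193 and 1191 CPM). Of 10 round spermatid markers, 6 lay above 0, from Tssk1 at -0.37 to Tssk2 at 0.09 (sum 5417 and 5204 CPM), and of 8 elongating spermatid markers 6, from Tnp1 at -0.07 to Prm1 at 0.27 (sum 20729.5 and 19510.3 CPM). Of 8 macrophage markers, Cd163 was listed at 0 and 4 of the others lay above 0, from Cd68 at -0.41 to Lyz2 at 0.18 (sum 98.5 and 94.5 CPM). Whether the share of these cells had a part in the ratios of Dhcr7 and Stard4 was not tested. Markers of the labelled tissue were present, such as the sperm protamine Prm1 with 1762 CPM with BPA and 1463 CPM in the control.

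**Figure D4:**
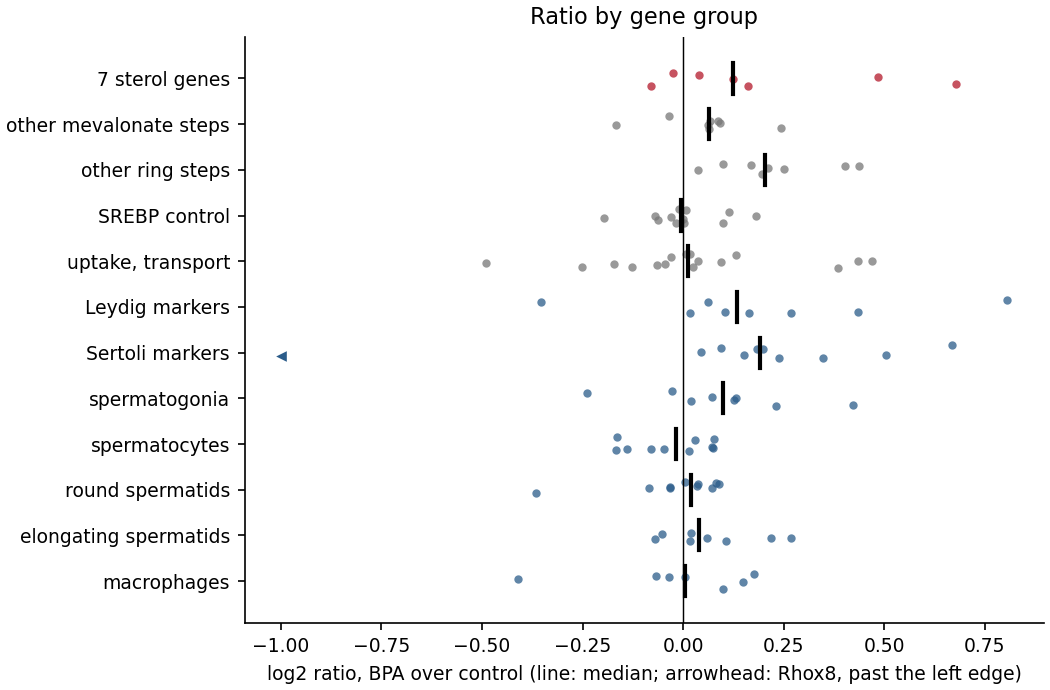
Log2 ratio of BPA over control for each gene at 1 CPM or more in the 7 sterol genes, 4 lists of the sterol pathway and 7 lists of cell type markers (points are genes, black lines are medians, and the arrowhead is Rhox8 at -2.58). The medians of the SREBP control list, the transport list, spermatocytes, round spermatids and macrophages lie within 0.02 of 0. Those of the 7 sterol genes (0.12), the other mevalonate steps (0.07) and the other ring steps (0.20) lie to the right. So do those of Leydig (0.13), Sertoli (0.19), spermatogonial (0.10) and elongating spermatid markers (0.04).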

How the data were processed

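Poly(A) RNA of 1 control and 1 BPA testis library was measured, each from 3 mixed samples, per the series design text. Per the submitters' processing notes, HISAT2 2.0.4, HTSeq 0.6.1 and build mm10 were used; the sources used here name no annotation, strand setting or scaling. The deposited columns are headed as read counts but hold CPM, summing to 995266 (BPA) and 997834 (control), with values under 1 written as 0. Every value above 0 is a whole multiple of a step, the worth of 1 read (tolerance 0.01 read), which gives 45162887 BPA and 41711330 control reads in listed genes. The log2 fold change column the authors deposited matches BPA over control CPM (largest gap 4.98e-05). It was used to fill 812 BPA and 592 control values listed as 0 where the other library was listed; no sterol gene needed this. The p-values and q-values are those the authors deposited.

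Symbols and positions came from RefSeq GRCm38.p6 (40269 rows matched), exon lengths, overlaps and 50-base words from GENCODE M21. Ratios and exact 95% intervals were computed in Python 3.11.15 with scipy 1.17.1, for genes reaching 1 CPM in either library. Log2 ratios have a pseudocount of 0.1 CPM. No count model was fitted, since each group has 1 library. The interval calculation was tested on simulated data. Genes of a like level have a mean CPM within 1.5-fold of the member's.

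The members and gene lists were chosen with earlier results of these data known. Counts cover whole lists, and a few of their genes are not reported here. The other genes of the synthesis and SREBP control lists are named. From the transport, efflux and fatty acid lists come the 4 largest log2 ratios in size and the gene with the highest CPM. Marker lists give the highest and lowest ratio, and the adipose list also Adipoq and Plin1. Alternatives covered the pseudocount, the scaling, the floor and the summary of the list.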

Additional observations from a re-analysis of the deposited data

How the results depend on the processing

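The log2 ratios of the 7 genes stayed within their counting intervals under a pseudocount of 1 CPM or none and under 3 other scalings (trimmed mean of log ratios, median ratio, sum of listed values), which moved all genes by less than 0.005 in log2. Stard4 ranged from 0.63 to 0.68, Dhcr7 from 0.47 to 0.49, Lss from 0.15 to 0.16, Hmgcs1 from 0.12 to 0.13, Cyp51 from 0.04 to 0.04, Sqle from -0.03 to -0.02 and Fdft1 from -0.09 to -0.08. The enzymes' median ranged from 0.09 to 0.13, the upper value being the mean over the list. The counts over all genes depend on the floor: at the 25% limit, 2200 higher and 2334 lower became 955 and 799 when the floor was 4 CPM, and 347 and 285 with a mean of 10 CPM. At 1.5-fold, 828 and 1042 became 254 and 268, and 80 and 87. With a pseudocount of 1 CPM they were 364 and 474. Taking listed zeros as 0, chosen after seeing the data, gave 1053 and 1345. No paired analysis was possible because each group has 1 library. Depth limits the least abundant gene most: 407 control reads leave the ratio of Stard4 between 1.42 and 1.82 by counting alone. With 1 pooled library per group, no difference here has a replicate check.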

Other observations

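SREBP factors also act on fatty acid synthesis. Of 13 such genes, 11 had a log2 ratio above 0 and 2 below, with a median of 0.12. At the 25% limit, 2 were higher in the BPA library, against 11.3% of all genes: Gpam, which begins glycerolipid synthesis, with 27.0 CPM with BPA and 20.2 CPM in the control (ratio 1.33, 1.22 to 1.46), and Acaca, the acetyl-CoA carboxylase, with 58.0 and 44.6 CPM (1.30, 1.22 to 1.38). Scd2, a desaturase, stood at 210 and 181 CPM, and Lpin1, the highest of the list in CPM (not per length), at 566 and 562 CPM. Scd1, the related desaturase that is abundant in fat, went the other way and was the only gene of the list 2-fold apart, with 15.6 CPM with BPA and 43.9 CPM in the control (ratio 0.357, 0.327 to 0.389). Most adipose markers were lower too: 8 of 9 had a log2 ratio below 0, 6 of them by 2-fold or more, beside 1.95% of all genes. The 9 markers ran from Fabp4 at -3.50 to Pparg at 0.24, and their sum was 29.4 CPM with BPA and 87.3 CPM in the control. Adipoq (15.4 and 17.2 CPM, ratio 0.896) and Plin1 (4.47 and 4.88 CPM, ratio 0.917) differed less. The part of the adipose markers in the level of Scd1 was not tested. Of the words of Acaca, 30.4% occur at other loci.

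Of 10 genes of cholesterol efflux and esterification, 6 reached 1 CPM, and Abcg4, Soat2, Lcat and Apoa1 were listed at 0 in both libraries. Nceh1, a cholesterol ester hydrolase, had 4.32 CPM with BPA and 3.28 CPM in the control (ratio 1.32, 1.05 to 1.65), and Soat1, which makes cholesterol esters, had 44.8 and 37.9 CPM (1.18, 1.11 to 1.26). The efflux pump gene Abca1 stood at 40.1 and 43.4 CPM, and Lipe, the hormone-sensitive lipase and highest of the list in CPM (not per length), at 285 and 297 CPM.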
